A study of Mus musculus with 3 samples.

Results

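The 49 genes of DNA replication and S phase described here were chosen by name: each is a gene model with one of these symbols in all 3 deposited gene tables, out of 22658 models. The list holds the replicative helicase and its loaders, the polymerases, the sliding clamp and its loader, nucleotide supply enzymes, chromatin copying factors and E2F transcription factors. All 49 were found, and 47 of them were measured, meaning a mean level over the libraries of at least 0.5 RPKM (reads per kilobase of model, scaled to the total reads of the library) on a model of at least 300 bp. The same filter left 7915 measured genes in all. Pold1 and Pold2, subunits of DNA polymerase delta, were the members below it.

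The cells were NB490, a mouse pancreatic cancer line, and all 3 groups carried a doxycycline-inducible PDX1 shRNA kept under puromycin selection. One group was uninduced (0 h of doxycycline), one had 48 h of doxycycline, and the last, called grown-out, was cultured with the drug for over 3 weeks. Newly made RNA was labelled with 2 mM bromouridine for 30 min and captured with an antibody (Bru-seq), so the values report transcription during that window and not stored mRNA. Each group was 1 library, so there was no replicate, no p-value was computed, and each difference below compares those libraries. A doxycycline control lacking the hairpin is not analysed here, and whether the line was 1 clone is not given in the sources used here.

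Read totals were worked out from the deposited counts, model lengths and RPKM, as the median over models. Always in the order uninduced, 48 h, grown-out, they were 51006774, 48418864 and 41632296, and the members took 0.33%, 0.322% and 0.364% of them. A member had between 97 and 35436 reads in a library. Of 10 duct and epithelial markers, 8 were measured, while Epcam and Sox9 lay below the minimum. Of acinar, endocrine, fibroblast and endothelial markers 0 were measured, and of 6 immune markers only Cd68 was. Summed over each of these lists the level was under 1 RPKM in each library, and 5 of 6 acinar and 5 of 6 endocrine markers were at 0 throughout. The summed duct marker level was 158, 90.5 and 88.4 RPKM in that order, of which Spp1 held 98.6, 40.0 and 32.3 RPKM. Pdx1, the target of the shRNA, had 1.59, 1.05 and 1.41 RPKM of nascent RNA and was 1.51-fold lower at 48 h (1.28 to 1.77). Because the hairpin targets mature transcripts, nascent Pdx1 RNA is no check of how well it worked. The part of these marker and Pdx1 differences in the values below was not tested. Fewer cells in S phase and less transcription per cell cannot be told apart in bulk libraries.

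DNA replication starts when Cdc6 and Cdt1 load the ring of MCM2 to MCM7 onto origins in G1. In S phase the ring joins Cdc45 and the GINS complex to form the moving helicase, polymerase alpha with primase lays down primers, and polymerases delta and epsilon extend them on the PCNA clamp. Many of these genes are transcribed in late G1 and S phase under E2F factors: E2F1 to E2F3 are usually classed as activators, and E2F7 and E2F8 are repressors that are themselves E2F targets. Proliferating carcinoma cells keep this program active.

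The promoter letters are shown for the members that the results turn on: E2f8, E2f2, Rrm2, Uhrf1 and Pcna were among the lowest at 48 h, and the helicase genes Mcm5 and Mcm6 are given for contrast. Tk1, also among the lowest at 48 h, is not printed. Sequences are from RefSeq on build GRCm38.p6, read 5′ to 3′ on the gene's strand, and each gives the 250 bases before the start of transcription (the first window listed where a gene has more than 1, as for E2f2 and Uhrf1). Capitals mark an E2F element (TTTGGCGC, TTTCCCGC, TTTGCCGC or TTTCGCGC), a CCAAT box (CCAAT) or a CHR element (TTTGAA), each searched on both strands. The E2F pairs of Mcm5 and Mcm6 overlap on opposite strands. The windows lie at chr7:48881597-48881846 for E2f8 (minus strand), chr4:136172024-136172273 for E2f2 (plus), chr12:24708004-24708253 for Rrm2 (plus) and chr17:56303087-56303336 for Uhrf1 (plus). Those of Pcna, Mcm5 and Mcm6 lie at chr2:132253181-132253430 (minus), chr8:75109259-75109508 (plus) and chr1:128359706-128359955 (minus).
E2f8: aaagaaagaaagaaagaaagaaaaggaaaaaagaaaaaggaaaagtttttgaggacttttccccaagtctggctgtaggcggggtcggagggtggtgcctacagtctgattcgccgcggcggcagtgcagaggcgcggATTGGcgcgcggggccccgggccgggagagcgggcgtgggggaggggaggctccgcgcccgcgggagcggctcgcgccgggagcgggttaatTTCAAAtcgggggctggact
E2f2: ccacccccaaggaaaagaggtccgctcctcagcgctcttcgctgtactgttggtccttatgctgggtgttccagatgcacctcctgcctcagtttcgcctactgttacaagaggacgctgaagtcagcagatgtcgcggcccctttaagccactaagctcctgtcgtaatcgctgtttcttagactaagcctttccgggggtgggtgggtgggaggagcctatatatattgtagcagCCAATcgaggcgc
Rrm2: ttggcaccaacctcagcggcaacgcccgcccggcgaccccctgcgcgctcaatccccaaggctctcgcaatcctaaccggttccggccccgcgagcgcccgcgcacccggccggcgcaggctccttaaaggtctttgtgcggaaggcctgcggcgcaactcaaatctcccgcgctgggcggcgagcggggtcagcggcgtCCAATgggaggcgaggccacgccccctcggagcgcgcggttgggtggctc
Uhrf1: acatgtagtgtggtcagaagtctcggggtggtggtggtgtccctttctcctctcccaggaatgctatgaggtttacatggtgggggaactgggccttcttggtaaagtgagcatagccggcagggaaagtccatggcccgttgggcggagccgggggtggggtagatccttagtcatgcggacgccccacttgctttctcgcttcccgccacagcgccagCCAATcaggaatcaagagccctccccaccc
Pcna: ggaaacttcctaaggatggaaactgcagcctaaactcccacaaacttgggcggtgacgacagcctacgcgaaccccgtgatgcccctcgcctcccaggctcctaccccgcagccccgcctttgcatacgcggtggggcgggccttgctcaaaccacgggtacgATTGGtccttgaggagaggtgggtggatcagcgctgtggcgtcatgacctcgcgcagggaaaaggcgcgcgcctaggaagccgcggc
Mcm5: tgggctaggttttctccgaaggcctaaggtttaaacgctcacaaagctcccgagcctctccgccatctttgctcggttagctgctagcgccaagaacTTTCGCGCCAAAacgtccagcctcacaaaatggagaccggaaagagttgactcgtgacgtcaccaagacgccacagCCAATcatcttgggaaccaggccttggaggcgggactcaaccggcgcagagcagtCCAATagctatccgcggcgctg
Mcm6: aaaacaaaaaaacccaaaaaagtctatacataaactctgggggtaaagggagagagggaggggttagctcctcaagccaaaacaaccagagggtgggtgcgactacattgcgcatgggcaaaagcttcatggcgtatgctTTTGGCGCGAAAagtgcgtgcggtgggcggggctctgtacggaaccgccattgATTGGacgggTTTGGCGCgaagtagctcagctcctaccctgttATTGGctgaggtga

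Over whole windows of 300 bases, which add the 50 transcribed bases not printed, RefSeq promoters were at hand for 42 members, 8 of them with more than 1 window. An E2F element was found for 19 of the 42 (45.2%), against 5.7% of 5734 measured genes with a window and 2.6% of all 27025 genes with one. Counted over single windows, 2.26% of 32851 held it. A CCAAT box was found for 27 members (64.3%), against 43.8% of measured genes, 41.1% of all genes and 37.4% of windows. A CHR element was found for 8 (19%), against 14% of measured genes, 20.2% of all genes and 17.9% of windows. Mcm6 holds E2F letters starting at 110, 106 and 47 bases before the start, and Mcm5 at 153 and 149 bases before it. Among the other ring genes, Mcm7 has them at 165 bases before and 17 after the start in its first window. Mcm3 has them only after it, at 20 and 39 bases, Mcm2 has none, and Mcm4 has no window. E2f2 has its match 40 bases after the start, in the part not printed, and Uhrf1 has 1 in its other window. E2f8, Rrm2 and Pcna have none of these E2F letters in the window, which says only that these spellings are absent from it.

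In the uninduced library the 47 measured members ranged from 0.499 RPKM for Gins2 to 14.2 RPKM for Pcna, with a median of 2.08 RPKM. After Pcna came Rrm2 at 9.23, Slbp at 7.14, Rrm1 at 5.79, Mcm7 at 5.75, Dut at 5.36 and Tyms at 5.12 RPKM. From Rrm1 on, each of these overlapped the next in its Poisson interval: Rrm1 with 5.67 to 5.92, Mcm7 with 5.51 to 6.01, Dut with 5.18 to 5.55 and Tyms with 4.96 to 5.28 RPKM. The summed level of the 47 was 136 RPKM uninduced, 122 at 48 h and 143 in grown-out cells.

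**Figure D1:**
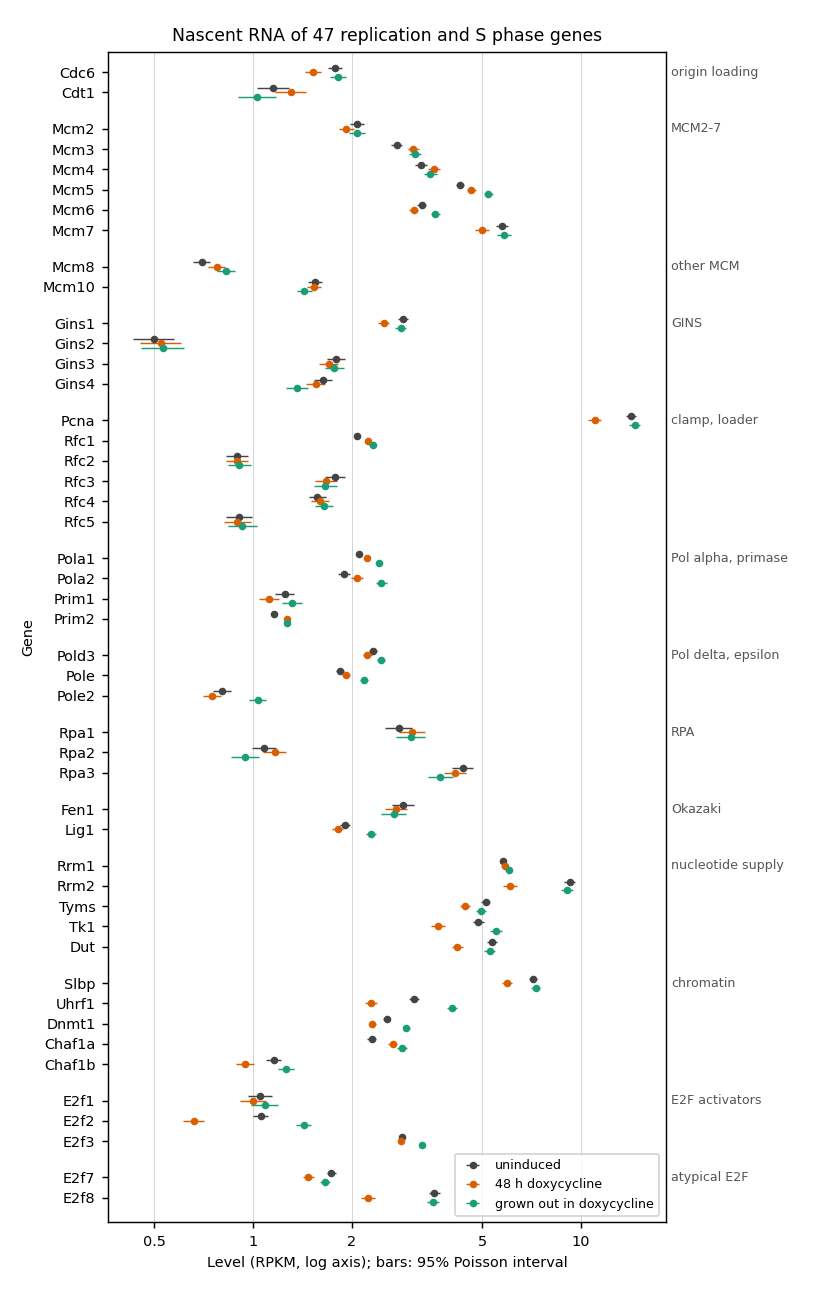
Level of each of the 47 measured members in the 3 libraries, in RPKM on a log axis, with bars for 95% Poisson intervals (counting error only) and genes grouped by role. Pcna was the most transcribed member in each library, and the 48 h points of Rrm2, Tk1, Uhrf1, E2f2 and E2f8 lie to the left of both others.

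The 48 h comparison asked which of these genes were transcribed differently soon after the shRNA was switched on. The lowest ratios were those of E2f8 (1.59-fold lower), E2f2 (1.60-fold) and Rrm2 (1.52-fold), while the helicase, clamp loader and measured polymerase genes stayed within 1.2-fold. A gene was called past 1.2-fold where the log2 ratio of RPKM (with 0.05 RPKM added to each) reached that size and the exact conditional binomial 95% interval of the read ratio excluded no change. The added 0.05 RPKM makes log2 ratios of low genes slightly smaller, while folds given with intervals are plain ratios. By this rule 8 of 47 members (17%) were lower, against 13.2% of all measured genes, and 0 were higher, against 5.84%. The share of lower members is thus near the background. The 8 were E2f8, E2f2, Rrm2, Uhrf1, Tk1, Pcna, Dut and Chaf1b. By counting error alone, 19 members (40.4%) were lower, against 30% of all measured genes, and 10 (21.3%) higher, against 30.1%. The median log2 ratio of the members was -0.07, against 0.00 over all measured genes. No member was past 2-fold, where 0.72% of measured genes were lower and 0.0253% higher.

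In grown-out cells the members lay slightly above the uninduced library. Of 47 members 6 (12.8%) were higher past 1.2-fold, against 10.7% of all measured genes, and 0 were lower, against 12%. The 6 were E2f2, Uhrf1, Pola2, Pole2, Chaf1a and Mcm5. The share of higher members is near the background here too. By counting error alone, 21 members (44.7%) were higher, against 33.6% of measured genes, and 4 (8.51%) lower, against 29.5%. The lower members by this measure were Gins4, Rpa3, Rpa2 and Mcm10. The median log2 ratio of the 47 was 0.07, against 0.01 over all measured genes. Past 2-fold the count of members was 0, where 0.164% of measured genes were higher and 0.708% lower.

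**Figure D2:**
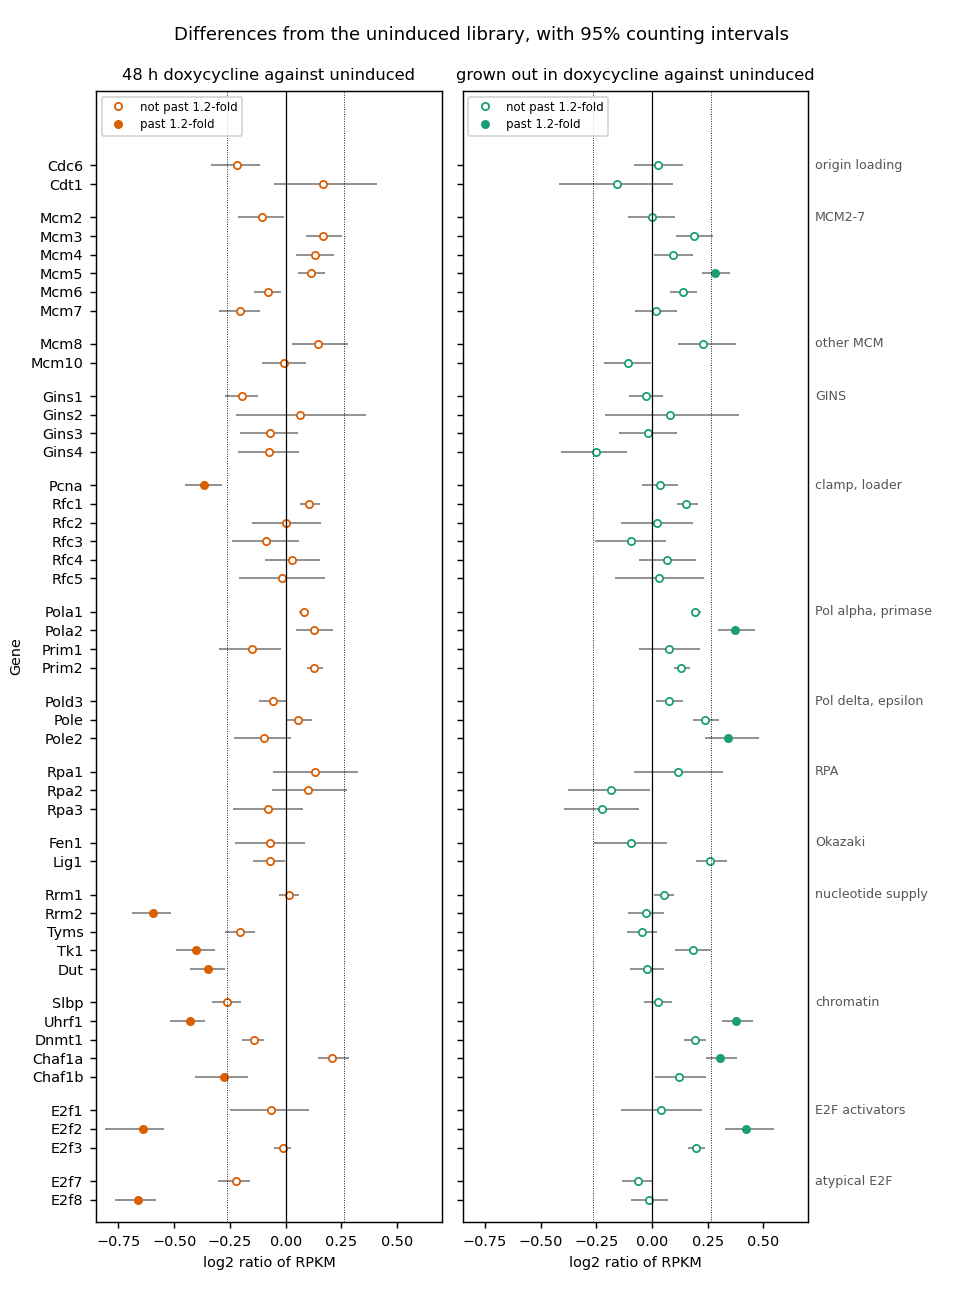
The log2 ratio of RPKM of each measured member against the uninduced library, at 48 h on the left and in grown-out cells on the right, with lines for the 95% counting interval and dotted lines at 1.2-fold. Filled points passed 1.2-fold with an interval that excluded no change: 8 genes lower at 48 h and 6 higher in grown-out cells.

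**Figure D3:**
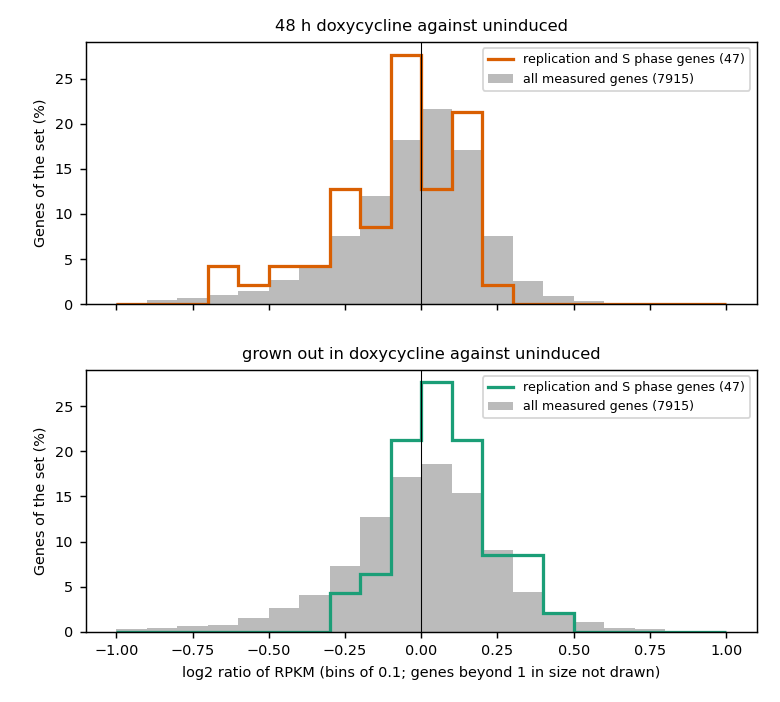
Share of genes, in percent, by log2 ratio of RPKM in bins of 0.1, for all 7915 measured genes (grey) and the 47 members (line), at 48 h above and in grown-out cells below. The members' middle lies at -0.07 at 48 h and at 0.07 in grown-out cells.

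Both comparisons use the same uninduced library, so their values are given side by side. A further comparison, of grown-out with 48 h cells, has no library of its own. Of 47 members 12 (25.5%) were higher past 1.2-fold in grown-out cells than at 48 h, against 16.6% of all measured genes, and 2 (4.26%) were lower, against 12.4%. The 12 were E2f2, Uhrf1, E2f8, Tk1, Rrm2, Pole2, Chaf1b, Pcna, Lig1, Dnmt1, Dut and Slbp, and the lower ones were Cdt1 and Rpa2. By counting error alone, 27 (57.4%) were higher, against 35.6%, and 3 lower, against 32%. The median log2 ratio was 0.13, against 0.01 over all measured genes. E2f2 alone was past 2-fold higher, as were 0.708% of measured genes, and 0 members were past 2-fold lower, against 0.316%.

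E2F genes had the lowest log2 ratio of the list at 48 h (E2f8) and the highest in grown-out cells (E2f2). E2f8, an atypical E2F that represses E2F targets (chromosome 7, 56121799 to 56136411, minus strand, in the coordinates of the files, whose build is not given in the sources used here), had 3.57 RPKM uninduced (95% Poisson interval 3.44 to 3.71), 2.24 at 48 h (2.13 to 2.35) and 3.54 grown out (3.40 to 3.70). The 48 h library was the low one and the other two overlapped. E2f8 was 1.59-fold lower at 48 h (1.50 to 1.70), and the grown-out ratio had an interval of 0.952 to 1.07. E2f7, its close relative, had 1.73 RPKM (1.68 to 1.79), 1.48 (1.42 to 1.53) and 1.66 (1.60 to 1.72). It too was lowest at 48 h, at 1.17-fold lower (1.12 to 1.23), short of the 1.2-fold call.

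E2f2, an activator (chromosome 4, 135728309 to 135751971, plus strand), had 1.06 RPKM (0.998 to 1.12), 0.66 (0.614 to 0.709) and 1.43 (1.36 to 1.51). The 3 intervals did not overlap, with 48 h the lowest and grown-out the highest. E2f2 was 1.6-fold lower at 48 h (1.46 to 1.75), 1.35-fold higher in grown-out cells (1.26 to 1.46), and 2.17-fold higher in grown-out than in 48 h cells (1.98 to 2.37). E2f1, another activator, had 1.05 (0.967 to 1.15), 1.00 (0.917 to 1.10) and 1.09 RPKM (0.990 to 1.19), and its intervals overlapped throughout. E2f3, the longest E2F gene here at 79489 bp, had 2.85 (2.80 to 2.90), 2.82 (2.77 to 2.88) and 3.27 RPKM (3.21 to 3.33), and was 1.15-fold higher in grown-out cells (1.12 to 1.18).

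Of 5 nucleotide supply genes 3 were lower past 1.2-fold at 48 h, against 13.2% of all measured genes. In grown-out cells 0 were past it, against 10.7% higher and 12% lower. Rrm2, the small subunit of ribonucleotide reductase whose supply limits the enzyme to S phase (chromosome 12, 25393119 to 25399011, plus strand), had 9.23 RPKM (8.89 to 9.58), 6.09 (5.80 to 6.38) and 9.07 (8.70 to 9.45). It was 1.52-fold lower at 48 h (1.43 to 1.61), and its grown-out ratio had an interval of 0.962 to 1.08. Rrm1, the large subunit of the same enzyme, had 5.79, 5.85 and 6.02 RPKM, and its 48 h ratio had an interval of 0.979 to 1.04, apart from that of Rrm2.

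Tk1, thymidine kinase, which salvages thymidine, had 4.86 (4.67 to 5.05), 3.67 (3.50 to 3.84) and 5.52 RPKM (5.30 to 5.74). The 3 levels were apart, at 1.32-fold lower at 48 h (1.25 to 1.41) and 1.14-fold higher in grown-out cells. Dut, which removes dUTP, had 5.36, 4.20 and 5.27 RPKM and was 1.28-fold lower at 48 h (1.21 to 1.35). Tyms, thymidylate synthase, had 5.12, 4.44 and 4.96 RPKM and was 1.15-fold lower at 48 h (1.10 to 1.21). A pseudogene model named Tyms-ps had 0.116, 0.184 and 0.214 RPKM, and reads shared between such copies could be split by the counting.

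Among genes for copying chromatin, Uhrf1 differed most. It encodes the factor that brings Dnmt1 to newly copied DNA (chromosome 17, 56442760 to 56462909, plus strand), and had 3.11 RPKM (3.00 to 3.22), 2.29 (2.20 to 2.39) and 4.05 (3.92 to 4.19). As for E2f2, the 48 h level was the lowest and the grown-out level the highest, without overlap. Uhrf1 was 1.36-fold lower at 48 h (1.28 to 1.43), 1.30-fold higher in grown-out cells (1.24 to 1.37) and 1.77-fold higher in grown-out than in 48 h cells (1.68 to 1.87). Dnmt1, the maintenance DNA methyltransferase, had 2.56, 2.31 and 2.93 RPKM, which is 1.11-fold lower at 48 h (1.07 to 1.15) and 1.14-fold higher in grown-out cells (1.11 to 1.18).

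Chaf1a and Chaf1b encode subunits of the same histone chaperone, CAF-1, and differed in direction at 48 h. Chaf1a had 2.30 (2.22 to 2.38), 2.67 (2.58 to 2.76) and 2.85 RPKM (2.76 to 2.95), the highest log2 ratio of any member at 48 h (0.21), and was 1.24-fold higher in grown-out cells (1.18 to 1.30). Chaf1b had 1.16, 0.947 and 1.26 RPKM and was 1.22-fold lower at 48 h (1.12 to 1.33). Slbp, which binds the stem-loop of histone mRNA, had 7.14, 5.94 and 7.28 RPKM, and its 48 h log2 ratio of -0.26 was just short of the call. By plain ratio, without the added 0.05 RPKM, Slbp was 1.201-fold lower (1.15 to 1.26).

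Of 6 clamp and clamp loader genes 1, the clamp gene Pcna, was lower past 1.2-fold at 48 h (16.7%), near the 13.2% of all measured genes. Of these genes 0 were higher, against 5.84%. Pcna (chromosome 2, 132075022 to 132078916, minus strand) had 14.2 RPKM (13.7 to 14.7), 11.0 (10.5 to 11.5) and 14.6 (14.0 to 15.2). The 48 h library was the low one, 1.29-fold below the uninduced (1.22 to 1.37), and the uninduced and grown-out intervals overlapped. Rfc1, the large subunit of the clamp loader, had 2.08, 2.24 and 2.32 RPKM, 1.08-fold higher at 48 h (1.04 to 1.11) and 1.12-fold higher grown out (1.08 to 1.15). Rfc2 had 0.895, 0.897 and 0.909 RPKM, Rfc3 1.78, 1.67 and 1.66, Rfc4 1.57, 1.60 and 1.65, and Rfc5 0.908, 0.897 and 0.929. These small subunit genes had intervals that included no change in both comparisons. Rfc4 shares 185 bp at its end with Eif4a2 on the opposite strand, which had 41.4 RPKM uninduced.

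The 6 helicase subunit genes, whose products form 1 ring in equal numbers, had no common direction at 48 h: 3 were higher and 3 lower by counting error, against 30.1% and 30% of all measured genes. Past 1.2-fold there were 0, against 5.84% higher and 13.2% lower. Mcm3 had 2.74 (2.63 to 2.85), 3.09 (2.97 to 3.21) and 3.13 RPKM (3.00 to 3.26), higher in both doxycycline libraries. Mcm4 had 3.25 (3.12 to 3.39), 3.57 (3.42 to 3.71) and 3.48 RPKM (3.32 to 3.63). Mcm5 had 4.28 (4.15 to 4.41), 4.64 (4.50 to 4.78) and 5.22 RPKM (5.06 to 5.38), and at 1.22-fold higher in grown-out cells (1.17 to 1.27) it was the ring gene past the call.

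The other ring genes were lower at 48 h. Mcm7 had 5.75 (5.51 to 6.01), 4.98 (4.75 to 5.23) and 5.82 RPKM (5.55 to 6.10), lowest at 48 h by 1.15-fold (1.08 to 1.23). Mcm6 had 3.27 (3.17 to 3.36), 3.09 (3.00 to 3.18) and 3.60 RPKM (3.49 to 3.71). Mcm2 had 2.08 (1.98 to 2.18), 1.93 (1.83 to 2.03) and 2.08 RPKM (1.97 to 2.19), and its 48 h ratio was 1.08-fold lower (1.00 to 1.16). The Mcm7 model holds the microRNA models Mir25, Mir93 and Mir106b on its strand, and its deposited length of 7020 bp leaves out the 254 bp they cover.

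Of the loaders, Cdc6, the ATPase that recruits the ring, had 1.78, 1.52 and 1.82 RPKM and was 1.17-fold lower at 48 h (1.08 to 1.26). Cdt1, its partner, had 1.16 (1.03 to 1.29), 1.30 (1.17 to 1.45) and 1.03 RPKM (0.901 to 1.18), and was 1.26-fold lower in grown-out than in 48 h cells (1.06 to 1.51). Neither differed from the uninduced library beyond counting error when grown out. Mcm10, an initiation factor outside the ring, had 1.55 (1.48 to 1.62), 1.54 (1.47 to 1.61) and 1.43 RPKM (1.36 to 1.51). Mcm8, a helicase of recombination repair, had 0.697 (0.655 to 0.742), 0.776 (0.729 to 0.824) and 0.827 RPKM (0.775 to 0.881), higher in both doxycycline libraries by counting error.

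The GINS genes, for the complex that completes the helicase, were close between libraries. Gins1 had 2.87, 2.50 and 2.82 RPKM and was 1.15-fold lower at 48 h (1.09 to 1.21). Gins4 had 1.64 (1.53 to 1.75), 1.55 (1.45 to 1.66) and 1.37 RPKM (1.26 to 1.48), the lowest log2 ratio of any member in grown-out cells (-0.25), short of the call. Gins2 (0.499, 0.524 and 0.531 RPKM) and Gins3 (1.79, 1.70 and 1.77 RPKM) had intervals that included no change in both comparisons, and Gins2 stood near the minimum level.

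Of 7 measured polymerase and primase genes 6 were higher in grown-out cells by counting error, against 33.6% of all measured genes, and 2 of them past 1.2-fold, against 10.7%. Pola2, the accessory subunit of polymerase alpha, had 1.90 (1.82 to 1.98), 2.08 and 2.47 RPKM (2.37 to 2.57), with the 48 h level between the others, and was 1.30-fold higher grown out (1.23 to 1.38). Pole2, the accessory subunit of polymerase epsilon, had 0.805 (0.758 to 0.855), 0.749 (0.702 to 0.798) and 1.03 RPKM (0.975 to 1.10), 1.28-fold higher grown out. Pole, the catalytic subunit of epsilon, had 1.85, 1.92 and 2.18 RPKM and was 1.18-fold higher (1.14 to 1.23). These were also the genes with the higher ratios among the polymerases.

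Pola1, the catalytic subunit of alpha and the longest member at 327390 bp, had 2.11, 2.24 and 2.43 RPKM and was 1.15-fold higher grown out (1.13 to 1.17). The primase genes Prim1 (1.25, 1.12 and 1.32 RPKM) and Prim2 (1.16, 1.27 and 1.27 RPKM) went in opposite directions at 48 h beyond counting error. Pold3, a delta subunit, had 2.33, 2.23 and 2.46 RPKM. Pold1, the catalytic subunit of delta, had 0.407, 0.360 and 0.496 RPKM and Pold2 had 0.416, 0.394 and 0.383 RPKM, both under the minimum and left out of the counts.

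Single-strand binding and Okazaki fragment genes were within 1.2-fold at 48 h, where 13.2% of all measured genes were lower past it and 5.84% higher. Rpa2 had 1.08 (0.997 to 1.18), 1.16 (1.07 to 1.26) and 0.948 RPKM (0.859 to 1.04), and Rpa3 had 4.37 (4.05 to 4.70), 4.14 (3.82 to 4.47) and 3.73 RPKM (3.41 to 4.07). Both were lowest in grown-out cells, by 1.14-fold (1.00 to 1.30) and 1.17-fold (1.04 to 1.31). Rpa1 had 2.78 (2.53 to 3.06), 3.06 (2.78 to 3.34) and 3.02 RPKM (2.73 to 3.34), with overlapping intervals. Its deposited length is 3106 of a 48125 bp span, inside a repeated model, Mir684-1, that covers 40505122 bp on the same strand, so its level rests on a small part of its span. Fen1, the flap nuclease, had 2.87 (2.66 to 3.09), 2.74 (2.53 to 2.95) and 2.69 RPKM (2.46 to 2.92), and Lig1, the ligase that seals the fragments, had 1.91, 1.81 and 2.30 RPKM. Lig1 had a grown-out log2 ratio of 0.26, just short of the call, and was 1.27-fold higher than at 48 h (1.21 to 1.33). Its plain ratio to the uninduced library, without the added 0.05 RPKM, was 1.204-fold higher (1.15 to 1.26).

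The span of the gene model went with the grown-out ratio among the members. Over the 47 members the log2 ratio of grown-out to uninduced had a Spearman correlation of 0.61 with span, against 0.02 over all 7915 measured genes. The points share the same libraries, and genes are not independent replicates. Of 23 members longer than 16054 bp, the members' median span, 6 were higher past 1.2-fold (26.1%), against 10.1% of 4955 measured genes above it. The median log2 ratio of these members was 0.19, against 0.02 for those genes. Of 24 members at or under that span 0 were higher past 1.2-fold, against 11.7% of 2960 genes, and their median was 0.01, against -0.02. Among long and short members 0 were lower past 1.2-fold, against 9.69% and 16% of measured genes of like span. At 48 h the correlation was 0.27, against 0.07 over all measured genes, with 5 of 24 short members (20.8%) and 3 of 23 long ones (13.0%) lower past 1.2-fold. Over all measured genes these shares were 17.1% and 10.8%, so the members lay near the background. The split at the median span was chosen after the values were seen, and the part of span in the ratios was not tested.

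**Figure D4:**
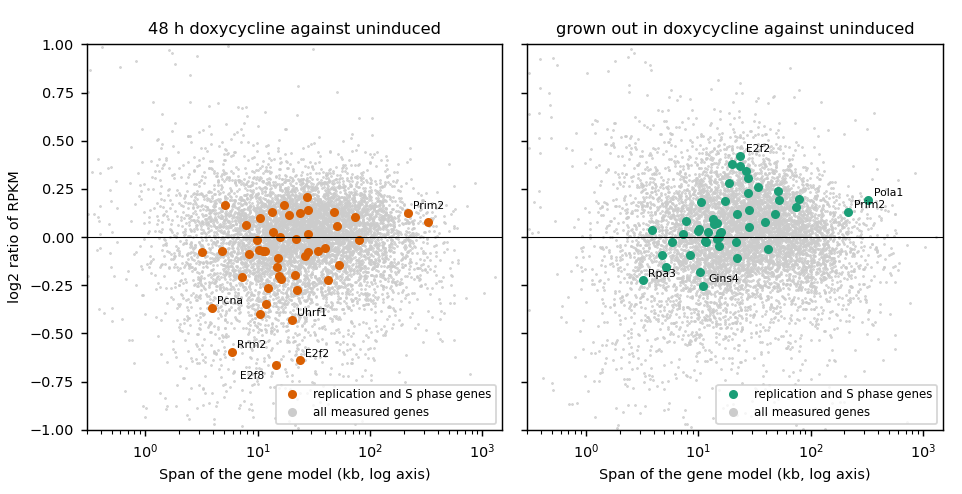
The log2 ratio of RPKM against the uninduced library by span of the gene model (kb, log axis), for all measured genes (grey) and the members (colour), at 48 h on the left and in grown-out cells on the right; ratios beyond 1 in size are not drawn. In grown-out cells the members go up with span (Spearman 0.61 for 47 genes), with Gins4 the lowest member and E2f2 the highest.

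Motif matches can be set beside the same ratios. Among measured members with a promoter window, 2 of 18 with an E2F element and 6 of 22 without one were lower past 1.2-fold at 48 h, against 13.2% of all measured genes, with median log2 ratios of -0.08 and -0.07. In grown-out cells 4 of 18 with and 2 of 22 without one were higher past 1.2-fold, against 10.7% of all measured genes, with medians of 0.19 and 0.03. With a CCAAT box 5 of 26 members were lower at 48 h and 4 were higher grown out, and without one 3 and 2 of 14. With a CHR element 2 of 7 were lower at 48 h and 1 was higher grown out, and without one 6 and 5 of 33. A match is a description of the letters, and its part in the ratios was not tested.

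Other genes of the pathway were taken from lists that were chosen with earlier results of these data known. Of 6 origin recognition genes, which mark origins, 0 were past 1.2-fold at 48 h, against 5.84% of all measured genes higher and 13.2% lower. In grown-out cells 1, Orc1, was higher past it, at 1.22-fold (1.16 to 1.28), against 10.7%, and 0 were lower, against 12%. Orc1 had 1.77, 1.91 and 2.15 RPKM, and Orc6 was lowest of the list in both, with 7.89, 7.55 and 6.63 RPKM. At 48 h Orc4 was the highest with Orc1, at 1.09-fold (1.07 to 1.12), and Orc5 had 1.28 and 1.23 RPKM. In grown-out cells Orc2 had 2.63 against 2.42 RPKM and Orc3 had 1.19 against 1.32 RPKM.

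Of 28 measured further replication factors, 1 was lower past 1.2-fold at 48 h, against 13.2% of all measured genes, and 0 were higher, against 5.84%. The 1 was Ccne2, the cyclin E2 gene that drives entry into S phase, with 1.86, 1.35 and 2.13 RPKM and a 48 h level 1.38-fold lower (1.27 to 1.51). Usp1, a deubiquitinase acting on PCNA, was next, with 3.23, 2.71 and 3.50 RPKM. The highest at 48 h were Pole3 (1.41 and 1.81 RPKM, on 87.5 and 106 reads) and Topbp1 (6.57 and 7.61 RPKM). The 48 h interval of Pole3, 0.947 to 1.70, includes no change. At 48 h 13 of these 28 (46.4%) were lower by counting error, against 30% of all measured genes, and 7 (25%) higher, against 30.1%. The median log2 ratio of the list was then -0.04, against 0.00.

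In grown-out cells 7 of these 28 (25%) were higher past 1.2-fold, against 10.7% of all measured genes, and 0 lower, against 12%. The list had a median log2 ratio of 0.18, against 0.01 over all measured genes. By counting error 20 (71.4%) were higher, against 33.6%, and 2 (7.14%) lower, against 29.5%. The highest were Pole3, 1.47-fold (1.09 to 1.96), and Pold4, 1.43-fold on 48.3 and 56.4 reads, whose interval of 0.955 to 2.15 spans equality. The lowest were Ccne1, at 0.681 RPKM uninduced and 0.581 grown out, and Asf1a, at 2.52 and 2.28 RPKM. Ccne1 was 1.17-fold lower with an interval of 0.987 to 1.39, which includes no change.

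Of 11 measured further E2F partners and pocket protein genes, 0 were past 1.2-fold at 48 h, against 5.84% of all measured genes higher and 13.2% lower. Rb1, the retinoblastoma gene, was then 1.21-fold lower (1.16 to 1.25) by plain ratio, with a log2 ratio of -0.25. Rb1 had 0.888, 0.737 and 0.761 RPKM, so it was lower in both doxycycline libraries. In grown-out cells 2 of the 11 were higher past 1.2-fold, against 10.7%, and 1 was lower, against 12%. Tfdp1, the DNA-binding partner of E2Fs, was 1.33-fold higher (1.29 to 1.38), Lin54 of the DREAM complex 1.28-fold higher (1.24 to 1.33) and Rbl2, a pocket protein gene, 1.22-fold lower (1.15 to 1.30). Tfdp2, the other partner, had 2.54, 2.89 and 2.22 RPKM, and Lin52, also of DREAM, 1.85, 2.08 and 1.86 RPKM.

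Of 18 G2 and mitosis genes, given as a second part of the cell cycle, 1 was lower past 1.2-fold at 48 h, against 13.2% of all measured genes, and 1 in grown-out cells, against 12%. In both comparisons 0 were higher, against 5.84% and 10.7%. At 48 h it was Cdc20, an activator of the anaphase complex, at 1.30-fold lower (1.08 to 1.57), and in grown-out cells Ccnb2, cyclin B2, at 1.31-fold lower (1.21 to 1.42). Mki67, a proliferation marker, had 7.76, 6.49 and 7.24 RPKM, and Top2a had 22.7, 19.1 and 20.2 RPKM. The deposited length of Top2a is 5217 of a 31243 bp span, so its level rests on a small part of its span. The highest at 48 h were Aurka (1.89 and 2.13 RPKM) and Bub1b (2.49 and 2.75 RPKM), and in grown-out cells Cdc20 (1.39 RPKM) and Kif11 (7.93 and 9.11 RPKM). The grown-out ratio of Cdc20 had an interval of 0.972 to 1.38, which includes no change. Counting error put 7 of the 18 (38.9%) lower at 48 h, against 30% of all measured genes, and 5 (27.8%) higher, against 30.1%. In grown-out cells 5 (27.8%) were higher by it, against 33.6%, and 6 (33.3%) lower, against 29.5%. The median log2 ratios of the list were -0.02 and 0.02, against -0.07 and 0.07 for the replication and S phase genes. The difference between these lists was not tested.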

How the data were processed

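Bru-seq libraries of 3 conditions, 1 each, were deposited as tables of gene models. Bowtie 0.12.8, bedtools 2.16.2, TopHat 1.4.1 and CASAVA 1.8.2 are listed, without settings, in the submitters' processing notes, as is the human build hg19, although the symbols are mouse. Only 1 of 49 members starts within 10 bp of its start in the GRCm38.p6 gene table, so coordinates are those of the files. Estimated counts, as deposited, are reads over a gene model, introns included for most models as the lengths show, and were rounded for the intervals and scalings. RPKM, also deposited by the authors, divides them by model length and 1 library total, and was the main measure. Another deposited column, a coverage signal in reads per base, was not used. Models nested on the opposite strand of a host had 0.00119 times the host's read density at the median (62 models), and same-strand ones 1.07 times (29 models).

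The 138 models with a repeated symbol (133) or a span over 3000000 bp (17) were left out, some being both. Intervals at 95% (exact Poisson for levels, exact conditional binomial for ratios; scipy 1.17.1) cover counting error only, and reads were not counted by molecular identifiers. The scripts were tested on simulated data. Alternatives were another pseudocount, minimum level and length, TMM scaling (edgeR 4.0.16) and size factors (DESeq2 1.42.0). The members and lists were chosen with earlier results of these data known. Of the members, those with the 6 highest and 6 lowest log2 ratios in each comparison with the uninduced library, the E2f genes, Pcna and the MCM2-7 genes were named with intervals, and the others with values. From each related list the 2 highest and 2 lowest were named. The span split and the promoter letters were chosen after the data were seen.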

Additional observations from a re-analysis of the deposited data

Results flagged for a closer look

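The 48 h and grown-out libraries lay on opposite sides of the uninduced one, each past 1.2-fold, for E2f2 and Uhrf1. The grown-out log2 ratio to 48 h was 1.06 for E2f2 and 0.81 for Uhrf1. With 1 library per condition this difference was not tested.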

How the results depend on the processing

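Of 54 recomputed values 50 stayed within limits set on the main result. For a median the limit was the counting interval of the middle gene alone, which is no interval of the median itself. For a count the limit was 1.5 times the main count. The settings were a pseudocount of 0.5 RPKM, a mean of at least 2 RPKM, no minimum level and a length of at least 3000 bp. TMM scaling and DESeq2 size factors were the others. The length setting could not drop a member, as the shortest measured one, Rpa1, has 3106 bp. Its member values equalled the main ones and say nothing on stability. The values that moved were counts. With a pseudocount of 0.5 RPKM, 3 members in place of 6 were higher in grown-out than in uninduced cells, where the share of all measured genes went from 10.7% to 6.46%. With it 0 in place of 2 were lower in grown-out than in 48 h cells, where that share went from 12.4% to 7.63%. The latter count was also 0 with a mean of at least 2 RPKM, which left 27 members, and 1 with DESeq2 size factors. The cause was not tested. TMM and DESeq2 scaling moved all log2 ratios of grown-out to uninduced cells by 0.03 and 0.04. They moved those of 48 h to uninduced cells by 0.01 and 0.02, and those of grown-out to 48 h cells by 0.02 and 0.03. No leave-one-out value could be made with 1 library per condition. No paired analysis was possible because each condition has 1 library. Members with few reads, such as Gins2 and Cdt1, have wide intervals for their level.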
